A study of Mus musculus with 24 samples.

Results

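The collagen gene family was taken here as every gene whose symbol is Col, a number, the letter a and a number. The rule used names and no measured value. It found 44 genes of the 56748 in the deposited table, all of them annotated as protein-coding. They were divided into 11 fibrillar genes, 8 genes of basement membrane collagens (type IV, and types XV and XVIII), 9 genes of fibril-associated collagens (FACIT and FACIT-like) and 16 other genes, among them type VI, type VIII and the transmembrane collagens.

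Collagens are the main structural proteins of the extracellular matrix, and each molecule is built from alpha chains wound into a helix. Fibrillar collagens assemble into the fibrils of skin, bone, dentin and cartilage, FACITs lie on the surface of these fibrils, and type IV forms the sheet-like network of basement membranes. In the tooth germ a basement membrane separates the epithelium from the dental mesenchyme, whose cells later give rise to the pulp and to the odontoblasts that lay down the type I collagen of dentin.

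The libraries came from first mandibular molar tooth germs of ICR mouse embryos at the cap stage (embryonic day 13) and the bell stage (embryonic day 15). Mesenchyme was freed with dispase II and sequenced undivided (Cap-W and Bell-W), or after the germ had been cut with a fine needle into a lingual part on the tongue side (Cap-L and Bell-L) and a buccal part on the cheek side (Cap-B and Bell-B). Cap stage parts of each side were kept in culture for 2 days before sequencing in further libraries (Cap-L+2D and Cap-B+2D). Each of the 8 groups had 3 libraries. No transgene, deletion or agent is named for any group, and the labels set the groups apart by stage, side or absence of the cut, and culture. A cultured part differs from a fresh part both by culture and by the time elapsed, which cannot be told apart. The sources do not say how many embryos went into a library or whether same-numbered libraries share animals. The p-values therefore measure the spread between these libraries, which may be technical.

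The libraries held from 20581720 to 39266497 counted read pairs. Levels are given as FPKM, that is counts per 1e+06 counts of the library's normalized (TMM) size and per kilobase of the gene's exons, on 1 scale for all 24 libraries, and values after a group name are its 3 libraries in replicate order. Replicates of the divided and cultured groups had a mean chi-square per gene between 1.31 and 9.73 for a pair of libraries, where counting noise alone gives 1, with the highest values in the pairs that held Cap-L replicate 2. In the undivided mesenchyme this value ran from 7.84 to 193, a range that meets the other, and Cap-W replicate 1 and Bell-W replicate 3 stood apart from the others. All 8 dental mesenchyme markers were detected in every group (summed level 430 to 857 FPKM). Markers of other cells were present too and differed between groups. The epithelial list of 8 genes summed to 11.5 to 12.4 FPKM in Cap-B+2D and to 135 FPKM or more elsewhere, with a peak of 951 FPKM in Bell-W replicate 3. The skeletal muscle list of 8 genes summed to 7.93 to 8.57 FPKM in Cap-L and 103 to 113 FPKM in Cap-B, 59.7 to 64.2 and 438 to 444 FPKM in Bell-L and Bell-B, and 147 to 157 and 1772 to 1882 FPKM in Cap-L+2D and Cap-B+2D. The part of these cells in the results below was not tested. In such bulk samples fewer cells of a type and less RNA per cell cannot be told apart.

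Collagen transcripts made up a small share of the counts that differed between the groups. The 44 genes took 1.00% to 1.29% of the counts in Cap-W, 1.95% to 2.03% in Cap-L and 2.42% to 2.51% in Cap-B. At the bell stage the share was 2.33% to 2.66% in Bell-W, 3.13% to 3.26% in Bell-L and 3.19% to 3.34% in Bell-B. The cultured parts held the highest shares, with 4.07% to 4.45% in Cap-L+2D and 3.67% to 3.97% in Cap-B+2D. In every library the fibrillar genes held more counts than the other classes together.

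**Figure D1:**
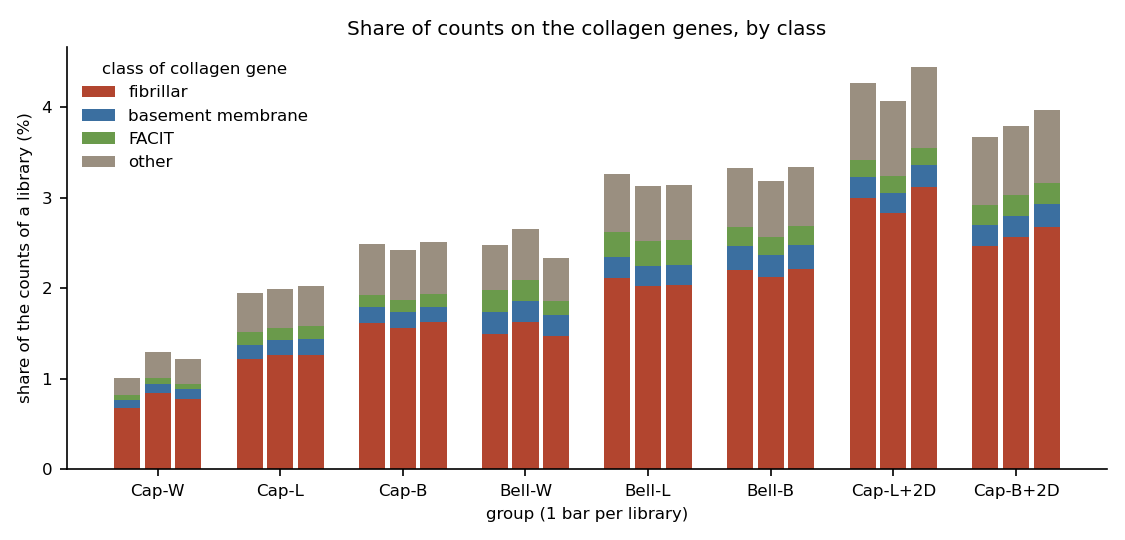
Share of the counts of each library (%, vertical axis) that fell on the 44 collagen genes, 1 stacked bar per library, grouped by sample group and coloured by class. The share lies between 1.00% and 1.29% in Cap-W and between 4.07% and 4.45% in Cap-L+2D, and the fibrillar genes form the largest block of every bar.

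The levels of the members spanned several orders of magnitude. Averaged over all 24 libraries, Col1a1 (a chain of type I collagen, the main collagen of bone and dentin) stood at 712 FPKM, Col3a1 (type III, of soft connective tissue) at 572 FPKM and Col1a2 (the other type I chain) at 376 FPKM. Type VI collagen, which forms beaded filaments around cells, followed with Col6a1 at 278 FPKM and Col6a2 at 174 FPKM. The leading basement membrane genes were Col4a1 at 136 FPKM and Col4a2 at 98.9 FPKM, the chains of the common type IV network, and the leading FACIT genes were Col16a1 at 72.6 FPKM and Col12a1 at 71.0 FPKM. These levels divide by the length of all annotated exons, which for Col1a2 is 2.32 times and for Col3a1 1.76 times the length of the canonical transcript. With the canonical length, an alternative added after the values were seen, Col3a1 came to 1010 FPKM, Col1a2 to 873 FPKM and Col1a1 to 789 FPKM, so the order of these leading genes depends on the length used. Comparisons of 1 gene between groups do not use a length. The ratios between genes given below do depend on the length used, while the change of a ratio between groups does not.

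At the low end, Col4a4 never passed 28 counts in a library and was called in no comparison. Col10a1, the collagen of hypertrophic cartilage, had at most 11 counts and was too low to be tested, and Col4a3 had at most 19 counts and entered 1 interaction fit only. Col4a3 and Col4a4 encode chains of a type IV network found in kidney and a few other basement membranes. Over all 24 libraries 42 of the 44 members passed the filter on low counts.

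**Figure D2:**
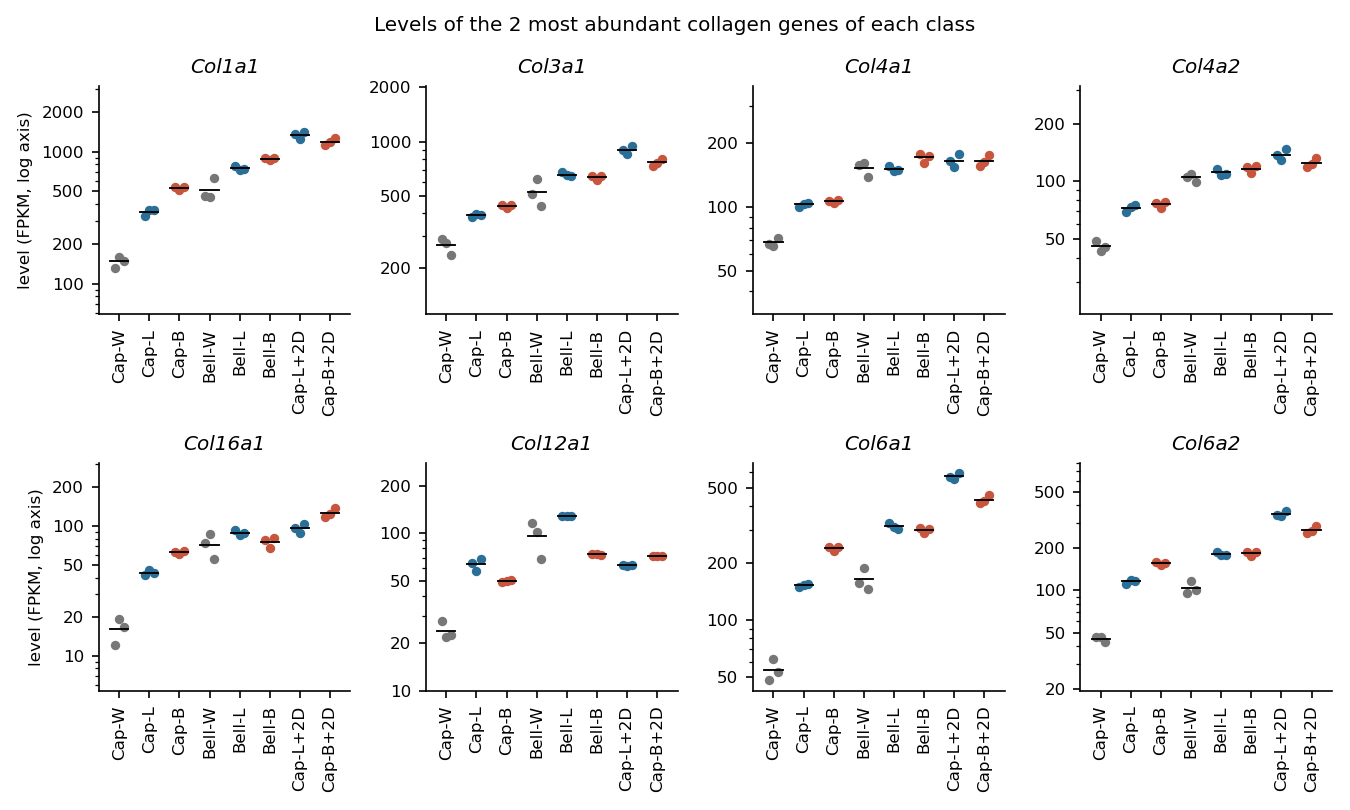
Level in FPKM (log axis) of the 2 most abundant collagen genes of each class in all 24 libraries. Points are libraries (gray for undivided mesenchyme, blue for lingual parts, red for buccal parts) and lines are group means. Each of the 8 genes was lowest in Cap-W, where Col1a1 read 132 to 159.9 FPKM against 1255 to 1397 FPKM in Cap-L+2D.

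The promoter-proximal sequence of 4 members on which the following comparisons turn is shown here, chosen after their values were seen. Col1a1 rose with stage and in culture, Col2a1 fell with stage, Col14a1 was higher in the buccal part and Col8a1 in the lingual part. Each sequence is the 200 bases before the start of the canonical transcript in GRCm39, written 5′ to 3′ on the strand of the gene. Capitals mark matches to motifs searched on both strands, so that a match on the other strand is seen as its reverse complement. The first motif was CCAAT, a common element of promoters upstream of the start. Another was TATAAA, which lies close to the start where it is used. The last was GGGCGG, which Sp1 family factors are known to bind. Neighbouring or overlapping matches run together. The windows are chr11:94826850-94827049 on the plus strand for Col1a1, chr15:97902690-97902889 on the minus strand for Col2a1, chr15:55170940-55171139 on the plus strand for Col14a1 and chr16:57575101-57575300 on the minus strand for Col8a1.
Col1a1: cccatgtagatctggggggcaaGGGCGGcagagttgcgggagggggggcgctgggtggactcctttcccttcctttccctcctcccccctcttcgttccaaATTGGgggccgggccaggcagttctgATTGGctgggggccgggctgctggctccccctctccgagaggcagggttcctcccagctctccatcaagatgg
Col2a1: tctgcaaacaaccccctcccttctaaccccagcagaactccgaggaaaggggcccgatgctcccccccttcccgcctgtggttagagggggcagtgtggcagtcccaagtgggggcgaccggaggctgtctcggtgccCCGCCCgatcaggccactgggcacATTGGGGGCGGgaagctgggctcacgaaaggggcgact
Col14a1: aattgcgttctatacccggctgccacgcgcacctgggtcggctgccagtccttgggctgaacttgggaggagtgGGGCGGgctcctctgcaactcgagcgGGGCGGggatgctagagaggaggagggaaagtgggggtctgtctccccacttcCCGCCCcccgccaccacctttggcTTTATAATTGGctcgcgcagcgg
Col8a1: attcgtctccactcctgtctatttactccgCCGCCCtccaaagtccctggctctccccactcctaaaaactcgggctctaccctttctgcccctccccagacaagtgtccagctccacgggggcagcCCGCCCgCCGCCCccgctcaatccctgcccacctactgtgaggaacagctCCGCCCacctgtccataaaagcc
A CCAAT match was present in 13 of the 44 collagen windows (29.5%) and in 32.3% of the windows of all 21770 protein-coding genes. A TATAAA match was present in 7 of 44 (15.9%, against 9.57% of all) and a GGGCGG match in 21 of 44 (47.7%, against 34.8% of all). A match describes the letters of the window and does not show that a factor binds there. Each window follows the annotated canonical start, so a motif near another start was not counted. The windows of Col4a1, Col4a4, Col6a4 and Col20a1 lay wholly within annotated exons (200 of 200 bases).

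The first question was how collagen expression differed between the cap and the bell stage. To be called, a gene had to pass an adjusted p of 0.05 with a log2 fold change beyond 0.5 in either direction (edgeR quasi-likelihood test, Benjamini-Hochberg adjustment over all genes tested). In the undivided mesenchyme 27 of 41 tested members were called, 23 higher and 4 lower at the bell stage, where 14.5% of all genes tested were called (10.3% higher and 4.21% lower). In the lingual part 24 of 42 were called, 17 higher and 7 lower (20% of all genes, 14.2% higher and 5.78% lower), and in the buccal part 20 of 42, 14 higher and 6 lower (18.7% of all genes, 12% higher and 6.73% lower). The median log2 fold change of the tested members was 0.96, 0.44 and 0.30 in the 3 comparisons, against -0.03, 0.00171 and 0.00498 over all genes tested. Bell-W against Cap-W rests on the libraries that varied most: without Cap-W replicate 1 and Bell-W replicate 3, 31 members were called, of which 26 were among the 27. Cap-W also lay below every library of its divided parts for 25 of 42 members, and Bell-W for 12 (15.8% and 9.09% of all genes). How this bears on the size of the undivided changes was not tested.

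At the bell stage 8 of 41 members (19.5%) were called higher in the undivided, lingual and buccal mesenchyme alike, against 4.76% of the genes tested in all 3 comparisons, which share no library. These were Col1a1, Col3a1, Col4a1, Col4a2, Col5a3, Col6a5, Col12a1 and Col14a1.

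Type I and type III collagen rose at the bell stage. Col1a1 (ENSMUSG00000001506, chromosome 11, 94827050 to 94843868) read 132, 159.9 and 149.6 FPKM in Cap-W and 461, 451 and 635 FPKM in Bell-W (log2 fold change 1.79, SE 0.20, adjusted p = 0.00134). It read 327, 362 and 361 FPKM in Cap-L and 777, 722 and 739 FPKM in Bell-L (log2 fold change 1.10, SE 0.05, adjusted p = 2.31e-15). It read 539, 513 and 539 FPKM in Cap-B and 897, 867 and 888 FPKM in Bell-B (log2 fold change 0.73, SE 0.04, adjusted p = 3.86e-18). In none of these comparisons did the libraries of the groups overlap. This held for 33 of 41 tested members in the undivided mesenchyme (36.8% of all genes), 38 of 42 in the lingual part (55.9%) and 38 of 42 in the buccal part (55.4%). Col3a1 rose by 0.96 (SE 0.19), 0.76 (SE 0.05) and 0.52 (SE 0.03) on the log2 scale in the undivided, lingual and buccal mesenchyme, and its call in the undivided mesenchyme was lost without Cap-W replicate 3 (log2 fold change 0.89, adjusted p = 0.0715). Col1a2 rose in the lingual part by 0.81 (SE 0.05), while in the buccal part its log2 fold change of 0.27 (SE 0.03) stayed under the limit for a call. In the undivided mesenchyme it was called (0.70) and lost this call without Cap-W replicate 2 or 3 or Bell-W replicate 1 or 2, with adjusted p from 0.05 to 0.0673. Among the osteoblast markers, 5 of 7 tested were called higher in the undivided mesenchyme and 3 of 8 in the buccal part, with none lower. In the lingual part 6 of 8 were called lower and none higher. Of all genes, 14.5%, 18.7% and 20% were called in these comparisons.

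Col5a3 had the largest rise of the fibrillar genes in each of the 3 stage comparisons. It encodes a chain of type V collagen, the minor collagen inside type I fibrils, and its level was low. Col5a3 (ENSMUSG00000004098, chromosome 9, 20681346 to 20726363) read 0.114, 0.227 and 0.191 FPKM in Cap-W against 3.00, 3.87 and 3.20 in Bell-W (log2 fold change 4.19, SE 0.27, adjusted p = 0.000244). The lingual part went from 0.594, 0.605 and 0.789 to 5.81, 5.18 and 5.72 FPKM (log2 fold change 3.09, SE 0.09, adjusted p = 1.01e-19). The buccal part went from 1.19, 1.24 and 1.10 to 7.53, 6.97 and 7.65 FPKM (log2 fold change 2.64, SE 0.07, adjusted p = 8.1e-26). Every bell stage library lay above every cap stage library of its kind. The other type V chains changed less: Col5a1 rose by 0.72 (SE 0.14) and 0.69 (SE 0.05) in the undivided and lingual mesenchyme, and Col5a2 was called in no stage comparison, with log2 fold changes of 0.64, 0.36 and 0.30. The undivided call for Col5a1 was lost without Cap-W replicate 3 (adjusted p = 0.0586) or Bell-W replicate 2 (adjusted p = 0.0591).

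Genes of cartilage collagens moved in both directions. Col2a1, the main collagen of cartilage fibrils, was the 1 member that was called lower at the bell stage in all 3 comparisons (2.44% of the 41 members, 0.698% of all genes). Col2a1 (ENSMUSG00000022483, chromosome 15, 97873483 to 97902576) fell from 20.7, 19.6 and 20.4 to 2.37, 1.77 and 4.21 FPKM in the undivided mesenchyme (log2 fold change -2.87, SE 0.30, adjusted p = 0.00118). It fell from 24.6, 26.4 and 26.1 to 3.58, 3.26 and 3.23 FPKM in the lingual part (log2 fold change -2.93, SE 0.06, adjusted p = 6.39e-23). In the buccal part it fell from 12.3, 11.8 and 12.1 to 3.32, 3.16 and 3.37 FPKM (log2 fold change -1.89, SE 0.05, adjusted p = 2.51e-26). No bell stage library reached the lowest cap stage library of its kind. Col11a2, a chain of type XI collagen found with type II in cartilage fibrils, fell in the lingual part (log2 fold change, -1.23 (SE 0.07)) and in the buccal part (log2 fold change, -0.66 (SE 0.07)), and in the undivided mesenchyme its log2 fold change was 0.05 (SE 0.38). Col9a2 rose in the lingual part (0.52, a call lost without Cap-L replicate 1 or 3 or Bell-L replicate 1) and Col9a3 in the buccal part (0.76). Col11a1, the partner chain of Col11a2, rose in the undivided mesenchyme (log2 fold change, 1.00 (SE 0.18)) and in the buccal part (log2 fold change, 0.59 (SE 0.03)). The 9 cartilage markers other than collagens summed to 10.9 to 12.3 FPKM in Cap-L and 9.67 to 10.1 in Bell-L, and to 7.83 to 8.07 FPKM in Cap-B and 10.3 to 10.5 in Bell-B, with Matn1 at 0 in Cap-L and Bell-W. At the bell stage 3 of 8 tested were called higher and 1 lower in the lingual part. In the buccal part the counts were 3 and 1 of 7 (20% and 18.7% of all genes called). Sox9 read 5.10 to 5.27 FPKM in Cap-L and 3.77 to 3.85 in Bell-L, and Sox6 3.12 to 3.81 and 0.957 to 1.06. Hapln1 read 1.18 to 1.35 FPKM in Cap-L and 2.34 to 2.45 in Bell-L, and Sox5 0.312 to 0.391 and 0.923 to 0.943.

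Among the FACITs, Col14a1 rose steeply in the lingual part. Type XIV collagen coats type I fibrils in tendon, skin and other dense tissue. Col14a1 (ENSMUSG00000022371, chromosome 15, 55171146 to 55384199) read 1.04, 1.05 and 1.02 FPKM in Cap-L and 13.2, 13.5 and 13.3 FPKM in Bell-L (log2 fold change 3.69, SE 0.05, adjusted p = 6.59e-25). The buccal part already stood at 15.6, 15.5 and 15.6 FPKM at the cap stage and reached 39.0, 38.3 and 39.1 FPKM (log2 fold change 1.31, SE 0.03, adjusted p = 7.12e-26). The undivided mesenchyme lay lower, at 0.564, 0.489 and 0.638 FPKM in Cap-W and 3.86, 3.53 and 5.32 FPKM in Bell-W (log2 fold change 2.90, SE 0.21, adjusted p = 0.000312). The groups did not overlap in any of these comparisons. Col12a1, a related FACIT, rose by 1.98, 1.02 and 0.55. Col16a1 rose in the undivided mesenchyme (log2 fold change, 2.15 (SE 0.23)) and in the lingual part (log2 fold change, 1.02 (SE 0.05)), with 0.26 (SE 0.05) in the buccal part.

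Other FACIT genes fell with stage on the lingual side. Col9a1, a chain of type IX collagen that decorates type II fibrils, read 1.76, 1.78 and 1.66 FPKM in Cap-L and 0.428, 0.367 and 0.348 FPKM in Bell-L (log2 fold change -2.18, SE 0.12, adjusted p = 5.16e-14). It fell in the undivided mesenchyme too, from 2.12, 4.70 and 1.95 to 0.425, 0.446 and 0.344 FPKM (log2 fold change -2.87, SE 0.38, adjusted p = 0.00272). In the buccal part it rose from 0.348, 0.421 and 0.384 to 0.687, 0.562 and 0.621 FPKM (log2 fold change 0.69, SE 0.16, adjusted p = 0.000724). The stage change of Col9a1 thus had opposite signs on the 2 sides, and the interaction of side with stage was called (2.86, adjusted p = 2.62e-13). Col22a1, which is known from the junction of muscle and tendon, fell from 1.21, 1.501 and 1.49 to 0.285, 0.266 and 0.220 FPKM in the lingual part (log2 fold change -2.45, SE 0.12, adjusted p = 9.53e-15) and also in the buccal part (log2 fold change -0.69). Col19a1 was near the counting floor: 4 to 129 counts per library over all groups. It fell from 0.129, 0.0718 and 0.0585 to 0.0224, 0.0243 and 0.0188 FPKM in the undivided mesenchyme (log2 fold change -1.95, SE 0.49, adjusted p = 0.0335), a call that was lost in each of the 6 fits without 1 library (adjusted p 0.0628 to 0.113). In the lingual part its log2 fold change was -1.93.

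The type IV chains Col4a1 and Col4a2, whose genes lie head to head with starts that overlap by 22 bases, rose together. Col4a1 read 67.2, 65.6 and 71.8 FPKM in Cap-W and 158, 161 and 139 FPKM in Bell-W (log2 fold change 1.15, SE 0.13, adjusted p = 0.00142). Col4a2 read 49.1, 43.4 and 45.8 and 106, 109.9 and 99.4 FPKM (log2 fold change 1.18, SE 0.11, adjusted p = 0.000843). In the lingual part they rose by 0.56 and 0.62, and in the buccal part by 0.68 and 0.60. Their ratio stayed between 1.20 and 1.57 in all 24 libraries. The endothelial list of 7 markers, whose cells also make type IV collagen, summed to 35.1 to 37.8 FPKM in Cap-W and 67.5 to 86.3 in Bell-W. It summed to 84.7 to 88.0 FPKM in Cap-L and 105 to 108 in Bell-L, and to 75.0 to 77.5 FPKM in Cap-B and 95.1 to 97.9 in Bell-B. Of these markers 6 were called higher in the undivided, 2 in the lingual and none in the buccal mesenchyme (10.3%, 14.2% and 12% of all genes). Their part in the rise of type IV collagen was not tested. Of the remaining basement membrane genes, Col15a1 rose in the undivided mesenchyme (0.97) and in the buccal part (0.68), Col18a1 and Col4a6 in the undivided mesenchyme (0.86 and 0.96). The call for Col18a1 was lost without Cap-W replicate 1 or 2 or Bell-W replicate 1 (adjusted p 0.0572 to 0.0985) and that for Col4a6 without Cap-W replicate 2 or 3 (adjusted p 0.082 and 0.0683).

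Of the other classes, type VI collagen rose. Col6a1 read 47.9, 62.2 and 53.0 FPKM in Cap-W and 157, 187 and 146 FPKM in Bell-W (log2 fold change 1.57, SE 0.16, adjusted p = 0.001), and 149, 153 and 155 FPKM in Cap-L and 324, 310.0 and 302 FPKM in Bell-L (log2 fold change 1.04, SE 0.04, adjusted p = 4.55e-16). In the buccal part, 242, 230.3 and 244 FPKM in Cap-B stood against 305, 287 and 302 FPKM in Bell-B, which did not reach the limit (log2 fold change 0.31, SE 0.04, adjusted p = 4.69e-09). Col6a2 rose by 1.19 and 0.65 in the undivided and lingual mesenchyme. Type VI genes of a separate cluster on chromosome 9 were much lower in level. Col6a5, with 2 to 133 counts per library, read 0.0296, 0.0105 and 0.00951 FPKM in Cap-W and 0.192, 0.160 and 0.175 FPKM in Bell-W (log2 fold change 3.44, SE 0.48, adjusted p = 0.00318, and 4.03 without Cap-W replicate 1). Col6a6 rose in the lingual part from 0.797, 0.568 and 0.752 to 3.36, 3.26 and 3.46 FPKM (log2 fold change 2.28, SE 0.09, adjusted p = 6.88e-17). Col6a4, with 4 to 68 counts per library, fell in the buccal part from 0.117, 0.0933 and 0.0868 to 0.0539, 0.0209 and 0.0350 FPKM (log2 fold change -1.41, SE 0.33, adjusted p = 0.000643).

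Type VIII collagen, a short-chain network collagen of the cornea and vessel wall, rose in the undivided mesenchyme (Col8a1 by 1.33 and Col8a2 by 1.49) and in the buccal part. Col8a2 went from 35.4, 33.7 and 35.4 FPKM in Cap-B to 83.4, 77.1 and 84.1 FPKM in Bell-B (log2 fold change 1.22, SE 0.04, adjusted p = 1.99e-23), and Col8a1 rose by 1.20 (SE 0.04). In the lingual part their log2 fold changes of 0.41 and 0.50 were just under the limit or below it. Col13a1, a transmembrane collagen known from cell adhesion sites and the neuromuscular junction, moved in opposite directions: it fell in the buccal part from 16.2, 16.2 and 16.6 to 9.88, 9.26 and 9.84 FPKM (log2 fold change -0.76, SE 0.05, adjusted p = 2.57e-15) and in the lingual part (log2 fold change -0.60), and rose in the undivided mesenchyme by 1.14. Col25a1, a transmembrane collagen needed for innervation of muscle, fell in the undivided and lingual mesenchyme (log2 fold changes -1.33 and -1.27).

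**Figure D3:**
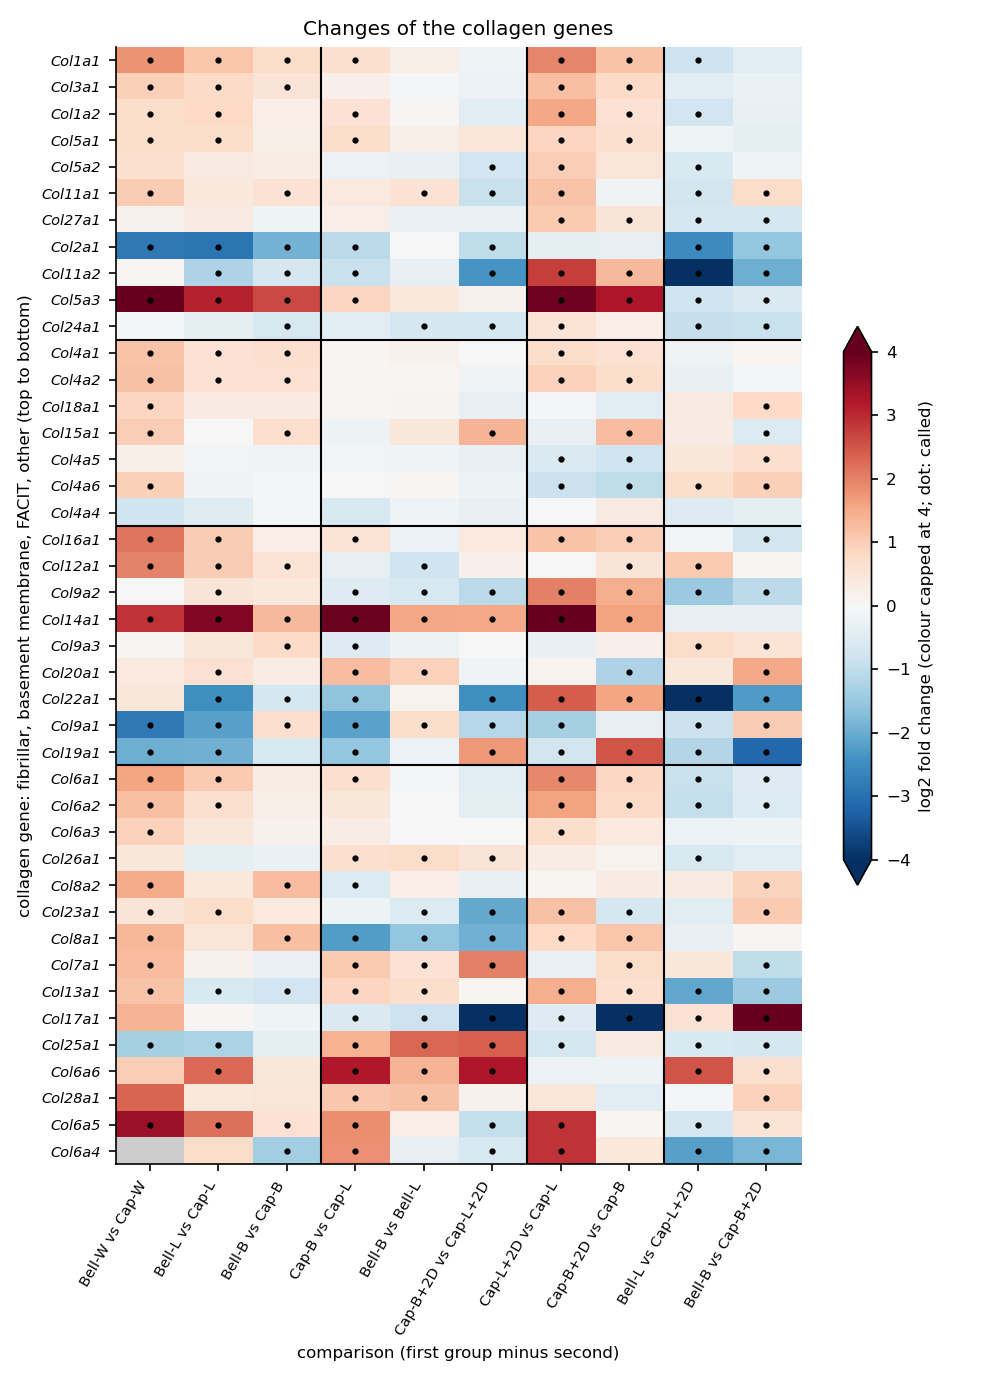
Log2 fold change (colour, first-named group minus second, capped at 4) of the 42 collagen genes that passed the filter over all libraries, in rows by class and level, across the 10 pairwise comparisons in columns: stage, side, culture, and bell stage against culture. A dot marks a called gene and gray a gene not tested. Most fibrillar genes are red in the stage and culture columns, while Col2a1 is blue in the 3 stage columns.

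The second question was how the lingual and buccal parts differed. At the cap stage 26 of 42 tested members were called, 16 higher in the buccal and 10 higher in the lingual part (17.5% of all genes tested were called, 10.4% higher and 7.1% lower in the buccal part). In Bell-B against Bell-L 16 of 42 were called, 10 higher in the buccal and 6 in the lingual part (12.9% of all genes, 6% and 6.88%). After 2 days of culture 20 of 42 were called, 7 higher in the buccal and 13 in the lingual part (25.1% of all genes, 12.5% and 12.5%). The median log2 fold change, buccal minus lingual, of the tested members was 0.15 at the cap stage, 0.0436 at the bell stage and -0.24 in culture, against -0.00556, 0.000351 and 0.000908 over all genes.

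The libraries of the sides did not overlap for 38 of 42 members at the cap stage (52.4% of all genes), 28 of 42 in the bell stage parts (45.5%) and 32 of 42 in culture (59.1%). Side differences of some members held in all 3 settings, which share no library. Col6a6, Col7a1, Col14a1, Col25a1 and Col26a1 were called higher in the buccal part each time (5 of 42, 11.9%, against 2.7% of the genes tested in all 3), and Col8a1, Col9a2 and Col17a1 higher in the lingual part (3 of 42, 7.14%, against 2.45%). Calls of opposite sign were made for Col6a4, Col6a5, Col9a1, Col11a1 and Col19a1 (5 of 42, 11.9%, against 1.58%). Col3a1, Col4a1, Col4a2, Col4a4, Col4a5, Col4a6, Col6a2, Col6a3, Col18a1 and Col27a1 were called in none of the side comparisons (10 of 42, 23.8%, against 68.7%). Calls near the limit of 0.5 were those of Col26a1, whose call in culture (0.52) was lost without Cap-L+2D replicate 2 or Cap-B+2D replicate 3 (0.48 in both), and of Col9a2, whose cap stage call (-0.53) was lost without Cap-L replicate 2 (-0.48).

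**Figure D4:**
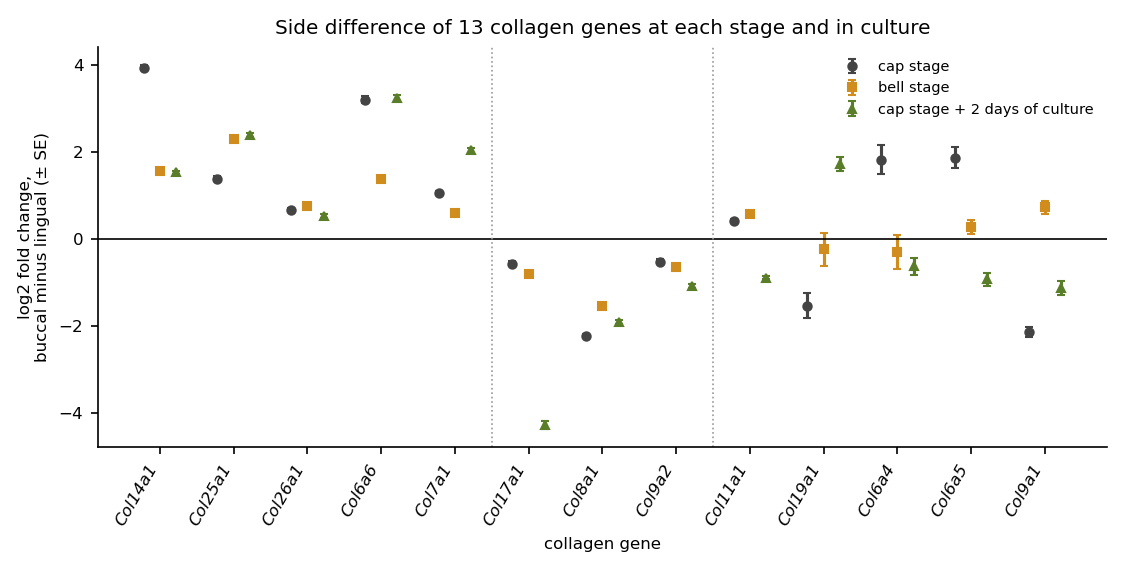
Log2 fold change, buccal minus lingual, with its standard error (vertical axis) for the 13 collagen genes called in the same direction in all 3 side comparisons (left and middle) or in opposite directions (right). Circles are the cap stage, squares the bell stage and triangles the cap stage after 2 days of culture. Col14a1 lies at 3.93, 1.54 and 1.52, and Col17a1 reaches -4.28 in culture.

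Col14a1 had the largest buccal excess of the family at the cap stage. Col14a1 stood at 15.6, 15.5 and 15.6 FPKM in Cap-B against 1.04, 1.05 and 1.02 FPKM in Cap-L (log2 fold change 3.93, SE 0.05, adjusted p = 4.1e-19). Later, 39.0, 38.3 and 39.1 FPKM in Bell-B stood against 13.2, 13.5 and 13.3 FPKM in Bell-L (log2 fold change 1.54, SE 0.03, adjusted p = 1.12e-33). In culture it was 49.0, 47.6 and 47.8 FPKM against 16.8, 16.3 and 16.8 FPKM (log2 fold change 1.52, SE 0.04, adjusted p = 1.38e-21). No library of one side reached those of the other, and the side difference shrank from the cap to the bell stage (interaction -2.39, adjusted p = 2.87e-22) and in culture (interaction -2.41, adjusted p = 2.34e-22).

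Col6a6, a long alpha chain of type VI collagen, showed a buccal excess of similar size. Col6a6 (ENSMUSG00000043719, chromosome 9, 105565008 to 105705359) read 6.42, 6.28 and 6.11 FPKM in Cap-B and 0.797, 0.568 and 0.752 FPKM in Cap-L (log2 fold change 3.19, SE 0.08, adjusted p = 1.15e-15). Bell-B and Bell-L read 8.71, 8.51 and 8.67 and 3.36, 3.26 and 3.46 FPKM (log2 fold change 1.36, SE 0.04, adjusted p = 3.71e-28), and in culture 5.33, 5.42 and 5.91 and 0.614, 0.621 and 0.543 FPKM (log2 fold change 3.23, SE 0.07, adjusted p = 1.79e-22). No lingual library reached a buccal one. Its neighbours on chromosome 9, Col6a5 and Col6a4, also showed the buccal excess at the cap stage: Col6a5 read 0.206, 0.156 and 0.199 FPKM against 0.0532, 0.0562 and 0.0450 FPKM (log2 fold change 1.86, SE 0.23, adjusted p = 3.24e-06), and Col6a4 differed by 1.82 (SE 0.34). In culture both were higher in the lingual part, with differences (buccal minus lingual) of -0.94 and -0.64, and the call for Col6a4 there was lost without Cap-B+2D replicate 1 (adjusted p = 0.0503).

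Col25a1 was higher in the buccal part at every setting. It read 8.81, 8.63 and 8.34 FPKM in Bell-B against 1.62, 1.83 and 1.80 FPKM in Bell-L (log2 fold change 2.29, SE 0.04, adjusted p = 2.8e-35), and 14.2, 13.9 and 14.0 FPKM in Cap-B+2D against 2.63, 2.78 and 2.63 FPKM in Cap-L+2D (log2 fold change 2.38, SE 0.04, adjusted p = 2.56e-24). At the cap stage the difference was 1.38 (SE 0.06). All 8 skeletal muscle markers were called higher in the buccal part in the same 3 comparisons. Of all genes, 10.4% were called higher there at the cap stage, 6% at the bell stage and 12.5% in culture. In the undivided mesenchyme, where these markers summed to 6.30 to 9.44 FPKM at the cap stage, Col25a1 read 9.09, 7.91 and 8.63 FPKM, above the 3.85 to 4.54 FPKM of Cap-L and below the 10.8 to 10.9 FPKM of Cap-B. Col7a1, the anchoring fibril collagen beneath epithelia, read 30.5, 31.4 and 34.3 FPKM in Cap-B+2D against 7.94, 7.06 and 8.41 FPKM in Cap-L+2D (log2 fold change 2.03, SE 0.05, adjusted p = 5.53e-21), and differed by 1.04 at the cap and 0.59 at the bell stage. The epithelial markers were at their lowest in Cap-B+2D. The relation of Col25a1 to the muscle markers and of Col7a1 to the epithelial markers was not tested.

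Col8a1 was the strongest lingual member at both fresh stages. Col8a1 (ENSMUSG00000068196, chromosome 16, 57444621 to 57575100) stood at 24.4, 23.7 and 25.1 FPKM in Cap-L against 5.33, 4.98 and 4.95 FPKM in Cap-B (log2 fold change -2.24, SE 0.05, adjusted p = 1.19e-16). Bell-L and Bell-B read 33.3, 34.3 and 35.1 against 11.7, 11.7 and 11.8 FPKM (log2 fold change -1.55, SE 0.03, adjusted p = 1.92e-33), and in culture 41.8, 41.8 and 42.3 FPKM against 11.4, 10.9 and 11.3 FPKM (log2 fold change -1.92, SE 0.04, adjusted p = 1.88e-23). The lowest lingual library was above the highest buccal library in each setting. Its partner chain Col8a2 had side differences (buccal minus lingual) of -0.54 at the cap stage, which was called, and of 0.26 and -0.28 at the bell stage and in culture, under the limit. The ratio of Col8a2 to Col8a1 was 2.01 to 2.32 in Cap-L and 6.63 to 7.16 in Cap-B.

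At the cap stage Col9a1, Col2a1 and Col11a2, genes of cartilage collagens, were higher lingually. Col9a1 read 1.76, 1.78 and 1.66 FPKM in Cap-L and 0.348, 0.421 and 0.384 FPKM in Cap-B (log2 fold change -2.14, SE 0.12, adjusted p = 3.83e-11), Col2a1 differed by -1.07 (SE 0.04) and Col11a2 by -0.88 (SE 0.06). Col9a2 and Col9a3 were also higher lingually (-0.53 and -0.51, both calls lost without Cap-L replicate 2 and that of Col9a3 also without Cap-B replicate 2), while Col11a1 and Col27a1 had differences of 0.40 and 0.26, which were under the limit, with every Cap-B library above every Cap-L library. At the bell stage Col2a1 and Col11a2 had side differences of -0.03 and -0.32, neither of them called, and Col9a1 was higher in the buccal part (log2 fold change, 0.72 (SE 0.15)). In culture Col11a2 read 42.3, 38.8 and 45.5 FPKM in Cap-L+2D against 7.70, 8.49 and 8.64 FPKM in Cap-B+2D (log2 fold change -2.36, SE 0.05, adjusted p = 2.56e-22). The osteoblast list of 8 markers was also higher in the lingual part there, with 975 to 990.0 FPKM against 209 to 215 FPKM. Col22a1 was higher on the lingual side, at 1.21, 1.501 and 1.49 FPKM in Cap-L against 0.501, 0.382 and 0.470 FPKM in Cap-B (log2 fold change -1.62, SE 0.11, adjusted p = 1.27e-09), and in culture, at 7.15, 6.97 and 8.15 FPKM against 1.35, 1.20 and 1.52 FPKM (log2 fold change -2.46, SE 0.07, adjusted p = 3.72e-20).

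Col17a1, the transmembrane collagen of hemidesmosomes in basal epithelial cells, had the largest side difference of the family in culture. Col17a1 (ENSMUSG00000025064, chromosome 19, 47634783 to 47680533) read 0.302, 0.307 and 0.306 FPKM in Cap-B+2D and 5.98, 5.34 and 6.38 FPKM in Cap-L+2D (log2 fold change -4.28, SE 0.09, adjusted p = 2.13e-22). Bell-B and Bell-L read 5.11, 4.71 and 5.10 and 9.12, 8.47 and 8.77 FPKM (log2 fold change -0.82, SE 0.05, adjusted p = 1.4e-18), and at the cap stage the difference was -0.58 (SE 0.05). Of the 8 epithelial markers 7 were called lower in Cap-B+2D than in Cap-L+2D, with none higher (12.5% of all genes called lower). In Bell-W the library with the highest epithelial markers, replicate 3, also had the highest Col17a1, at 9.32, 7.11 and 31.8 FPKM over the 3 libraries. Col12a1 was higher in the lingual part at the bell stage, at 129, 129 and 128 FPKM in Bell-L against 73.3, 74.0 and 72.3 FPKM in Bell-B (log2 fold change -0.81, SE 0.03, adjusted p = 1.64e-24).

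Type I collagen was higher in the buccal part at the cap stage. Col1a1 differed by 0.63 (SE 0.05, adjusted p = 4.95e-09) and Col1a2 by 0.58 (SE 0.04, adjusted p = 3.79e-09). At the bell stage the side differences were 0.25 (SE 0.03) and 0.03 (SE 0.03), and in culture -0.17 (SE 0.04) and -0.42 (SE 0.04), none of them over the limit. The change in the side difference was itself called, with interactions of -0.38 and -0.55 for stage and -0.80 and -1.001 for culture. At the cap stage all 7 tested osteoblast markers were called lower in the buccal part (17.5% of all genes called). Their relation to type I collagen was not tested. Of the type V chains, Col5a1 was higher in the buccal part at the cap stage (log2 fold change, 0.70 (SE 0.04)) and Col5a2 was higher in the lingual part in culture (log2 fold change, -0.75 (SE 0.04)). The ratio of Col5a1 to Col5a2 was 0.951 to 0.971 in Cap-L and 1.82 to 1.85 in Cap-B, 1.19 to 1.24 and 1.76 to 1.79 in Bell-L and Bell-B, and 0.883 to 0.891 and 2.04 to 2.11 in Cap-L+2D and Cap-B+2D, so every buccal library had the higher ratio.

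The third question was how the cap stage parts changed over 2 days in culture. The fresh cap stage libraries also serve in the stage comparisons above, so the changes with stage and in culture are not independent of each other. In the lingual part 30 of 42 tested members were called, 24 higher and 6 lower after culture (35.4% of all genes were called, 19.6% higher and 15.9% lower), with a median log2 fold change of 0.74 against -0.03 over all genes. In the buccal part 26 of 42 were called, 21 higher and 5 lower (34.5% of all genes, 17.9% and 16.6%), with a median of 0.49 against -0.02. On both sides 17 members were called higher (40.5% of 42, against 12.2% of all genes tested on both sides). Of the 11 fibrillar genes, 10 were called higher in the lingual and 7 in the buccal part, and none was called lower. Col4a5, Col4a6 and Col17a1 were called lower on both sides (7.14%, against 9.46% of all genes).

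Type I collagen was among the genes that rose. Col1a1 went from 327, 362 and 361 FPKM to 1356, 1255 and 1397 FPKM in the lingual part (log2 fold change 1.94, SE 0.05, adjusted p = 1.26e-20) and from 539, 513 and 539 FPKM to 1119.9, 1189 and 1263 FPKM in the buccal part (log2 fold change 1.15, SE 0.04, adjusted p = 5.82e-24). Col3a1 went from 379, 398 and 391 FPKM to 895, 849 and 951 FPKM in the lingual part (log2 fold change 1.21, SE 0.05, adjusted p = 2.13e-17) and rose by 0.78 in the buccal part. The cultured libraries lay above the fresh ones for both genes. Over the family, fresh and cultured libraries did not overlap for 35 of 42 members in the lingual part (67.5% of all genes) and 38 of 42 in the buccal part (69%). The 8 osteoblast markers summed to 223 to 228 FPKM in Cap-L and 975 to 990.0 FPKM in Cap-L+2D, and to 93.8 to 96.3 and 209 to 215 FPKM on the buccal side, and their part in the rise was not tested. Of these markers 6 were called higher and 1 lower lingually, and 5 higher and 2 lower buccally (35.4% and 34.5% of all genes called). Ibsp alone held most of the sum in Cap-L+2D (554 to 579 FPKM). Runx2 fell from 47.7 to 52.2 FPKM in Cap-L to 32.2 to 33.2 FPKM in Cap-L+2D. Col5a3 rose from 0.594, 0.605 and 0.789 to 9.63, 9.09 and 10.3 FPKM (log2 fold change 3.88, SE 0.08, adjusted p = 1.36e-22) and from 1.19, 1.24 and 1.10 to 10.5, 11.0 and 11.8 FPKM (log2 fold change 3.22, SE 0.06, adjusted p = 1.69e-29). Col11a2 rose by 2.76 and 1.28 in the lingual and buccal part, whereas Col2a1 was not called on either side (-0.38 and -0.33). The ratio of Col11a1 to Col11a2 was 2.90 to 3.41 in Cap-L, 1.004 to 1.13 in Cap-L+2D and 9.10 to 11.2 in Bell-L. With the canonical length these ratios were 4.42 to 5.19, 1.53 to 1.73 and 13.9 to 17.1.

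FACIT genes changed in both directions. Col14a1 rose in the lingual part from 1.04, 1.05 and 1.02 to 16.8, 16.3 and 16.8 FPKM (log2 fold change 4.01, SE 0.05, adjusted p = 1.43e-26) and in the buccal part to 49.0, 47.6 and 47.8 FPKM (log2 fold change 1.61, SE 0.03, adjusted p = 3.64e-29). Col9a2 rose by 2.02 and 1.46, while Col9a1, a chain of the same type IX molecule, fell in the lingual part from 1.76, 1.78 and 1.66 to 0.624, 0.679 and 0.742 FPKM (log2 fold change -1.33, SE 0.10, adjusted p = 2.81e-11). The ratio of Col9a2 to Col9a1 was 10.7 to 11.6 in Cap-L and 105 to 125 in Cap-L+2D. Col19a1 changed in opposite directions: it rose in the buccal part from 0.0853, 0.103 and 0.0622 to 0.515, 0.481 and 0.469 FPKM (log2 fold change 2.53, SE 0.22, adjusted p = 4.1e-12), and fell in the lingual part from 0.229, 0.182 and 0.344 to 0.131, 0.163 and 0.145 FPKM (log2 fold change -0.74, SE 0.23, adjusted p = 0.00672), a fall that was not called without Cap-L replicate 3 (-0.47, adjusted p = 0.0847). The interaction of side with culture for Col19a1 was 3.26 (adjusted p = 1.25e-09). Col20a1 fell in the buccal part from 3.07, 2.79 and 3.06 to 1.26, 1.20 and 1.39 FPKM (log2 fold change -1.23, SE 0.08, adjusted p = 1.3e-14).

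Type VI collagen rose on both sides in culture. Col6a1 reached 570.1, 553 and 597 FPKM in Cap-L+2D (log2 fold change 1.92, SE 0.05, adjusted p = 9.54e-22) and 412, 423 and 455 FPKM in Cap-B+2D (log2 fold change 0.83, SE 0.04, adjusted p = 4.41e-20). Col6a2 rose by 1.59 and 0.77, and Col6a3 was called in the lingual part (0.69) but not in the buccal part (0.38). The ratio of Col6a3 to Col6a1 went from 0.704 to 0.821 in Cap-L to 0.325 to 0.331 in Cap-L+2D. The low gene Col6a4 rose in the lingual part from 0.0168, 0.0294 and 0.0373 to 0.164, 0.235 and 0.221 FPKM (log2 fold change 2.88, SE 0.28, adjusted p = 2.18e-09).

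Basement membrane and epithelial collagens split. Col4a1 and Col4a2 rose by 0.69 and 0.93 in the lingual part and by 0.61 and 0.69 in the buccal part. Col4a6, a type IV chain of epithelial and smooth muscle basement membranes, fell in the lingual part from 1.11, 1.21 and 1.25 to 0.659, 0.731 and 0.586 FPKM (log2 fold change -0.85, SE 0.11, adjusted p = 1.47e-07) and in the buccal part from 1.19, 1.10 and 1.17 to 0.603, 0.507 and 0.600 FPKM (log2 fold change -1.03, SE 0.10, adjusted p = 2.68e-11). Col4a5, which lies head to head with Col4a6 on chromosome X, fell on both sides (log2 fold changes -0.58 and -0.80). Col17a1 fell in the buccal part from 5.94, 5.47 and 5.33 to 0.302, 0.307 and 0.306 FPKM (log2 fold change -4.21, SE 0.09, adjusted p = 4.6e-29). All 8 epithelial markers were called lower in Cap-B+2D than in Cap-B and all 7 endothelial markers as well (16.6% of all genes called lower). Col15a1, a basement membrane collagen of vessels, muscle and nerve, rose in the buccal part by 1.24 and had a log2 fold change of -0.33 in the lingual part, not called. The interaction of side with culture for Col15a1 was 1.56 (adjusted p = 3.62e-19). Col23a1, a transmembrane collagen, rose in the lingual part (1.18) and fell in the buccal part (-0.66), with an interaction of -1.84 (adjusted p = 1.3e-20).

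The fourth comparison set the bell stage parts against the cultured cap stage parts of the same side, since embryonic day 13 and 2 days of culture add up to the age of the bell stage. In the lingual part 25 of 42 tested members were called, 5 higher in Bell-L and 20 higher in Cap-L+2D (31.2% of all genes, 16.8% and 14.4%), with a median log2 fold change, bell minus culture, of -0.49 against 0.0111 over all genes. In the buccal part 29 of 42 were called, 13 higher in Bell-B and 16 higher in Cap-B+2D (31.8% of all genes, 16.3% and 15.5%), with a median of -0.30 against 0.0130. On both sides 13 members were called higher in culture (31% of 42, against 8.84% of all genes) and 4 higher at the bell stage (9.52%, against 10.3%). Of the 11 fibrillar genes, 9 were higher in Cap-L+2D than in Bell-L, and 5 were higher and 1, Col11a1, lower in Cap-B+2D than in Bell-B.

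The members with the highest level in culture relative to the bell stage were cartilage type and FACIT genes. Col11a2 read 42.3, 38.8 and 45.5 FPKM in Cap-L+2D and 2.96, 2.40 and 2.62 FPKM in Bell-L (log2 fold change -3.99, SE 0.07, adjusted p = 1.94e-24), and 7.70, 8.49 and 8.64 and 2.12, 1.83 and 2.43 FPKM on the buccal side (log2 fold change -1.94, SE 0.06, adjusted p = 3.18e-23). Col22a1 read 7.15, 6.97 and 8.15 FPKM in Cap-L+2D and 0.285, 0.266 and 0.220 FPKM in Bell-L (log2 fold change -4.86, SE 0.10, adjusted p = 9.94e-23), and differed by -2.26 on the buccal side. Cultured and bell stage libraries did not overlap for either gene, as for 38 of 42 members in the lingual part (67.3% of all genes) and 39 of 42 in the buccal part (66.8%). Col2a1 read 19.6, 18.1 and 21.0 FPKM in Cap-L+2D and 3.58, 3.26 and 3.23 FPKM in Bell-L (log2 fold change -2.55, SE 0.06, adjusted p = 6.13e-22). Col19a1 read 0.515, 0.481 and 0.469 FPKM in Cap-B+2D and 0.0381, 0.0362 and 0.0866 FPKM in Bell-B (log2 fold change -3.15, SE 0.22, adjusted p = 4.08e-14). The 9 other cartilage markers summed to 22.1 to 22.2 FPKM in Cap-L+2D and 17.5 to 18.6 FPKM in Cap-B+2D, of which Sox9 alone held 14.9 to 15.4 and 9.89 to 10.4 FPKM. Of 8 tested lingually, 3 were called higher in culture and 1 at the bell stage. Of 7 tested buccally, 3 were called higher in culture and 2 at the bell stage (31.2% and 31.8% of all genes called). The 8 osteoblast markers summed to 975 to 990.0 FPKM in Cap-L+2D against 166 to 174 FPKM in Bell-L.

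The 4 members called higher at the bell stage than in culture on both sides were Col4a6, Col6a6, Col9a3 and Col17a1. Lingually Col6a6 read 3.36, 3.26 and 3.46 FPKM in Bell-L and 0.614, 0.621 and 0.543 FPKM in Cap-L+2D (log2 fold change 2.51, SE 0.09, adjusted p = 1.23e-17). Col12a1 read 129, 129 and 128 and 62.5, 61.5 and 63.1 FPKM (log2 fold change 1.04, SE 0.05, adjusted p = 7.16e-15), and Col9a3 4.17, 3.77 and 3.64 and 2.38, 2.03 and 2.47 FPKM (log2 fold change 0.75, SE 0.09, adjusted p = 6.09e-08). On the buccal side Col17a1 read 5.11, 4.71 and 5.10 FPKM in Bell-B against 0.302, 0.307 and 0.306 FPKM in Cap-B+2D (log2 fold change 4.04, SE 0.08, adjusted p = 1.85e-28). All 8 epithelial markers were also called higher in Bell-B (16.3% of all genes called higher). In the same groups Col20a1, a FACIT-like gene, read 3.66, 3.36 and 4.01 and 1.26, 1.20 and 1.39 FPKM (log2 fold change 1.53, SE 0.08, adjusted p = 7.83e-18), and Col23a1 23.2, 22.7 and 23.5 and 10.9, 11.2 and 11.5 FPKM (log2 fold change 1.05, SE 0.04, adjusted p = 4.46e-22). Col3a1, Col4a1, Col4a2, Col4a4, Col5a1, Col6a3, Col8a1 and Col14a1 were called on neither side (8 of 42, 19%, against 58.6% of all genes). Type I collagen was called on the lingual side, where Col1a1 was higher in culture (-0.84 (SE 0.05, adjusted p = 2.46e-13)), and had a log2 fold change of -0.42 on the buccal side.

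**Figure D5:**
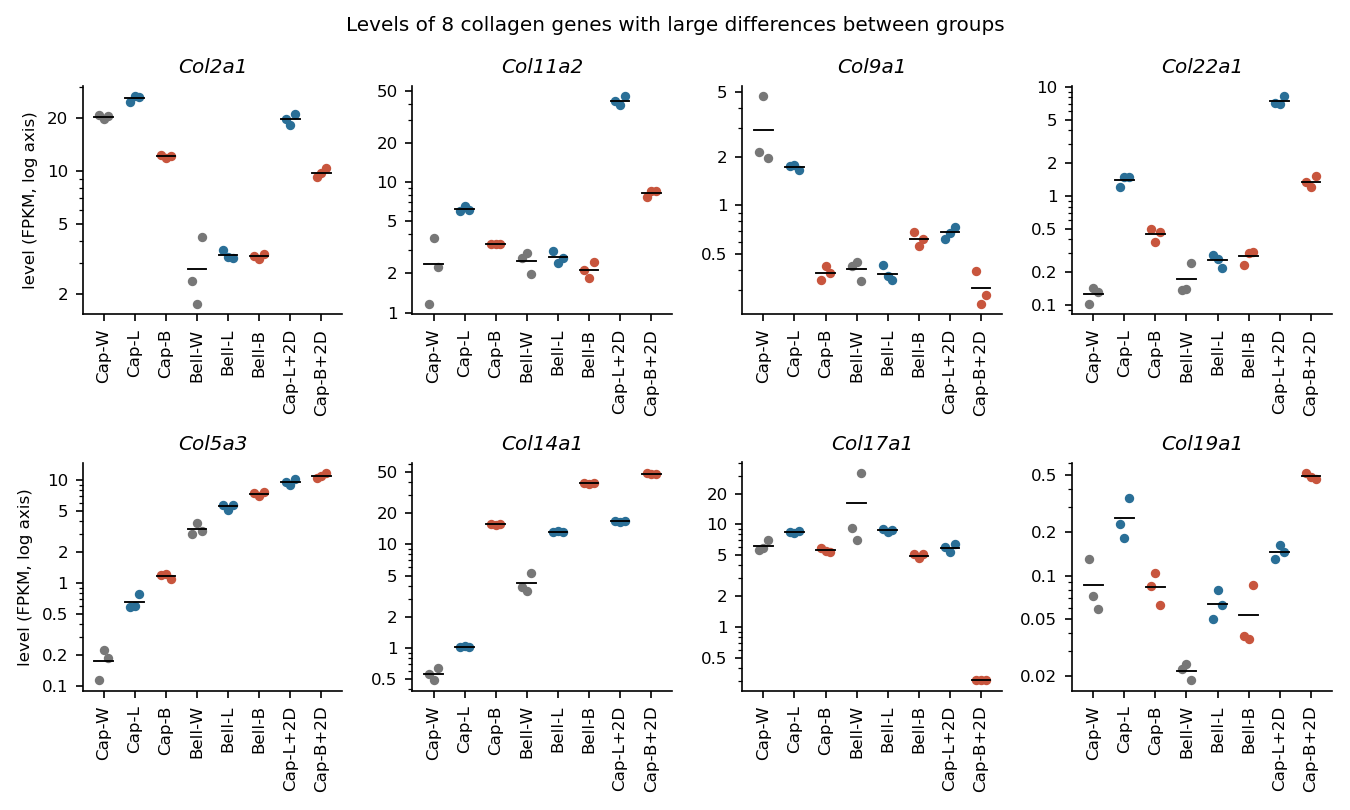
Level in FPKM (log axis) of 8 collagen genes with large differences between groups, in all 24 libraries (gray undivided, blue lingual, red buccal; lines are group means). Col2a1 is low in the bell stage groups, Col11a2 and Col22a1 peak in Cap-L+2D, Col14a1 is higher in each buccal group than in its lingual partner, and Col17a1 reads 0.302 to 0.307 FPKM in Cap-B+2D.

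Several members were called mainly in culture or between sides. Col24a1, a fibrillar collagen of developing bone, was lower in the buccal part in Bell-B against Bell-L (-0.68) and in culture (-0.72), and was higher in culture than at the bell stage on both sides (-0.93 and -0.90, bell minus culture). With stage it was called lower in the buccal part, at 4.26, 4.09 and 4.08 FPKM in Cap-B and 2.74, 2.55 and 2.79 FPKM in Bell-B. Its rise in the lingual part in culture (0.54) was not called without Cap-L replicate 2. Col27a1, a fibrillar collagen of cartilage, rose in culture on both sides (1.03 and 0.53), and the buccal call was lost without Cap-B+2D replicate 3. Col28a1, a low member at 0 to 0.402 FPKM, was higher in the buccal part of both fresh stages (1.09 and 1.16). Col20a1 was higher there as well (1.22 and 0.91).

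Whether side differences changed with stage or culture was tested directly. The interaction of side with stage was called at an adjusted p under 0.05 for 29 of 42 members, 9 toward the buccal and 20 toward the lingual side (32.5% of all genes, 14.5% and 18%). With all 24 libraries in 1 fit it was called for 16 members, 7 toward the buccal and 9 toward the lingual side. The interaction of side with culture was called for 34 of 43 members, 9 toward the buccal and 25 toward the lingual side (35.5% of all genes, 16% and 19.5%). With all 24 libraries in 1 fit it was called for 23 members, 5 toward the buccal and 18 toward the lingual side. The share of all genes called was not computed for the fit of all 24 libraries. Its counts therefore do not show whether collagen genes differed from all genes there. In the fits without the other groups, 7 of the 11 fibrillar genes moved toward the lingual side with stage. In culture 10 did, with none moving to the buccal side. The 3 fibrillar genes that moved toward the buccal side with stage were Col2a1 (1.03), Col11a2 (0.56) and Col11a1 (0.16). The last call was lost without Bell-L replicate 3 or Bell-B replicate 1 or 3 (adjusted p 0.0591 to 0.0782).

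The genes that fold, modify and cross-link collagen were read beside the collagens. Of 36 genes of this list, 14 rose and 2 fell from Cap-W to Bell-W, 7 rose and 2 fell from Cap-L to Bell-L, and 5 rose and 2 fell from Cap-B to Bell-B. Of all genes tested, 14.5%, 20% and 18.7% were called in these comparisons, so the lingual and buccal shares of the list lay near those of all genes. Of the lysyl oxidases, which start the cross-linking of collagen, Loxl1 rose by 3.06 (SE 0.19) in the undivided and Lox by 2.25 (SE 0.05) in the lingual mesenchyme, while Lox had a log2 fold change of -0.25 in the buccal part, under the limit. Adamts2, which removes the N-propeptide of procollagen, rose by 2.31 in the undivided mesenchyme, and Sparc, a collagen-binding matrix protein, by 1.44 in the lingual part. The related Adamts3 fell in all 3 stage comparisons (log2 fold changes -1.32, -0.91 and -0.51). Tll2, a tolloid-like proteinase, fell in the undivided mesenchyme (-2.06) and rose in the buccal part (1.47). Colgalt2, a collagen galactosyltransferase, fell in the lingual and buccal part (-0.51 and -0.78), and Pcolce2, an enhancer of C-propeptide removal, rose by 0.97 in the buccal part.

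Between the sides, Lox had the largest cap stage difference of the list, higher in the buccal part by 2.39 (SE 0.05), with Colgalt2 at 1.39 and Sparc at 0.87. Pcolce2 and Adamts3 were higher lingually, with differences (buccal minus lingual) of -0.83 and -0.58. In all, 5 of 35 tested genes were higher buccally and 2 lingually before culture at the cap stage, 2 and 1 of 36 at the bell stage, and 2 and 8 of 36 in culture, beside 17.5%, 12.9% and 25.1% of all genes called. In culture Loxl4 reached -2.45, Adamts14 -1.05 and Loxl2 -1.03. In Bell-B against Bell-L, Tll2 and Colgalt2 were higher (1.52 and 1.12) and Loxl4 lower (-0.52), and in culture Colgalt2 and Tll2 were again higher in the buccal part (1.40 and 1.38).

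In culture 24 of the 36 genes rose and 3 fell in the lingual part, and 13 rose and 6 fell in the buccal part, beside 35.4% and 34.5% of all genes called. Lox rose by 2.63, Sparc by 1.89 and Creb3l1, a transcription factor that drives type I collagen genes in osteoblasts, by 1.65 in the lingual part. Colgalt2, Adamts3 and P4ha3, a prolyl hydroxylase subunit, fell there (log2 fold changes -1.08, -0.82 and -0.74). In the buccal part Loxl1, Pcolce2 and Creb3l1 rose by 1.57, 1.47 and 1.18, and P4ha3, Adamts3 and Colgalt2 fell (-1.38, -1.09 and -1.07). Between the bell stage and culture, 3 genes were higher in Bell-L and 15 in Cap-L+2D, and 5 in Bell-B and 7 in Cap-B+2D (31.2% and 31.8% of all genes called). The medians of the list were 0.65 and 0.41 for culture in the lingual and buccal part, and 0.38, 0.15 and 0.15 for stage in the undivided, lingual and buccal mesenchyme.

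Of the 10 collagen receptors, integrin chains of the collagen-binding group were called in several comparisons. Itga1 rose at the bell stage by 1.95, 1.49 and 0.86, and Itga2 by 0.85, 0.89 and 0.56. Itga10, a receptor for type II collagen, fell in the lingual and buccal part (-0.79 and -0.62). Itga11, a receptor for type I collagen, was higher in the lingual part in all 3 settings, with differences (buccal minus lingual) of -2.12, -1.60 and -1.70, and rose in culture by 1.20 and 1.63. Lair1, an immune cell receptor for collagen, rose in culture by 2.45 and 2.55, where the 6 macrophage markers summed to 105 to 112 FPKM in Cap-L+2D against 22.7 to 25.5 FPKM in Cap-L, and to 68.2 to 74.3 FPKM in Cap-B+2D against 23.8 to 25.7 FPKM in Cap-B. In counts, 3 of 8 tested receptors rose and none fell from Cap-W to Bell-W, 2 rose and 1 fell of 9 in the lingual part, and 3 rose and 1 fell of 9 in the buccal part, beside 14.5%, 20% and 18.7% of all genes called. In culture 5 rose and 2 fell of 9 in the lingual part, and 3 rose and 3 fell of 9 in the buccal part, beside 35.4% and 34.5% of all genes called.

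The undivided mesenchyme did not lie between its parts for many members. At the cap stage all 3 Cap-W libraries were below all 6 libraries of Cap-L and Cap-B for 25 of the 42 members that passed the filter (15.8% of all genes), Col1a1, Col3a1, Col4a1 and Col6a1 among them, and above all 6 for Col9a1 alone (12.1% of all genes). Bell-W was below all 6 part libraries for 12 of 42 (9.09% of all genes) and above for Col4a5 and Col4a6 (9.67% of all genes). The labels do not say whether the undivided and the divided samples were prepared together, so preparation and the cut cannot be told apart in this comparison.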

How the data were processed

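RNA-seq libraries of 8 groups with 3 libraries each were analysed. The authors deposited 1 table of raw read counts per gene, made per its header with featureCounts of Subread 2.0.0 on the GRCm39 Ensembl annotation, from read pairs on exons and without multi-mapping pairs. The submitters' processing notes also name FastQC 0.12.1, Trimmomatic 0.39, Bowtie 1.2.3, Subread 2.0.3 and DESeq2 1.40.2. The counting was not strand-specific, so reads from a gene and an overlapping antisense gene cannot be told apart.

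Groups came from the sample labels. Counts were filtered with filterByExpr, scaled by TMM and tested with edgeR 4.0.16 (R 4.3.3, limma 3.58.1) by the quasi-likelihood test in 10 comparisons and 2 interactions, with Benjamini-Hochberg adjustment over all genes tested. Genes were called at an adjusted p under 0.05 and, in comparisons, an absolute log2 fold change over 0.5. FPKM used the exon length in the table. Standard errors were the absolute log2 fold change over the square root of F. With 3 libraries a group, a two-sided exact permutation test of a single value cannot give a p below 0.1, so none was run. The fits were tested on simulated data first.

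The collagen genes, classes and gene lists were chosen with earlier results of these data known. Values of every library are given for the 2 most abundant genes of each class and up to 3 called genes per direction and comparison with the largest change, plus genes chosen after their values were seen where a sentence needed them. Alternatives were RLE size factors, DESeq2 1.42.0, other filters (none, or at least 10 counts in every library) and fold limits, all 24 libraries in 1 fit, a replicate block, TMM without the collagens and each library left out. The fit without 2 libraries and the canonical length were added after seeing the data. Promoter windows came from the GRCm39 genome and the canonical transcripts of the GENCODE annotation.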

Additional observations from a re-analysis of the deposited data

Results flagged for a closer look

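The difference between the buccal and the lingual part changed from the cap to the bell stage in 29 collagen genes, by the interaction term of the edgeR quasi-likelihood fit at an adjusted p under 0.05. The values are interaction log2 fold changes, and a positive one means that the difference moved toward the buccal part. The 9 positive values were Col9a1 2.86, Col22a1 1.75, Col2a1 1.03, Col25a1 0.91, Col8a2 0.80, Col8a1 0.69, Col15a1 0.66, Col11a2 0.56 and Col11a1 0.16. The 20 negative values were Col14a1 -2.39, Col6a4 -2.14, Col6a6 -1.84, Col6a5 -1.61, Col16a1 -0.77, Col6a1 -0.74, Col1a2 -0.55, Col27a1 -0.53, Col12a1 -0.48, Col7a1 -0.47, Col5a1 -0.46, Col5a3 -0.46, Col6a2 -0.43, Col1a1 -0.38, Col23a1 -0.36, Col20a1 -0.31, Col6a3 -0.29, Col3a1 -0.26, Col24a1 -0.25 and Col17a1 -0.24.

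The difference between the buccal and the lingual part changed over 2 days in culture in 34 collagen genes, by the interaction term of the edgeR quasi-likelihood fit at an adjusted p under 0.05. The values are interaction log2 fold changes, and a positive one means that the difference moved toward the buccal part. The 9 positive values were Col19a1 3.26, Col15a1 1.56, Col9a1 1.002, Col25a1 1.001, Col7a1 0.98, Col12a1 0.52, Col9a3 0.49, Col8a1 0.32 and Col8a2 0.26. The 25 negative values were Col17a1 -3.71, Col6a5 -2.80, Col6a4 -2.46, Col14a1 -2.41, Col23a1 -1.84, Col11a2 -1.49, Col20a1 -1.38, Col11a1 -1.30, Col6a1 -1.10, Col1a2 -1.001, Col22a1 -0.85, Col6a2 -0.84, Col1a1 -0.80, Col13a1 -0.79, Col5a3 -0.67, Col9a2 -0.56, Col5a2 -0.52, Col27a1 -0.51, Col3a1 -0.44, Col18a1 -0.40, Col6a3 -0.32, Col24a1 -0.28, Col4a2 -0.25, Col4a5 -0.23 and Col5a1 -0.23.

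Calls with stage that were lost without 1 library were those of Col20a1 (without 8 different libraries), Col17a1 and Col24a1 (both without Cap-B replicate 1, adjusted p = 0.0656 and 0.0532) and Col11a1. With culture, the call for Col4a5 was lost without Cap-B replicate 3, Cap-L+2D replicate 3 or Cap-B+2D replicate 3 (adjusted p 0.0637 to 0.111).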

How the results depend on the processing

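The number of collagen genes called depended on the limit on the fold. With an absolute log2 fold change over 1 the counts were 14 for Bell-L against Cap-L, 6 for Bell-B against Cap-B, 13 for Cap-B against Cap-L, 5 for Bell-B against Bell-L, 18 for Cap-L+2D against Cap-L, 12 for Cap-B+2D against Cap-B, 9 for Bell-L against Cap-L+2D, 12 for Bell-B against Cap-B+2D, 7 for the interaction of side with stage and 14 for that of side with culture. With no limit on the fold they were 39 for Bell-B against Cap-B, 29 for Bell-B against Bell-L, 34 for Cap-B+2D against Cap-L+2D and 39 for Bell-L against Cap-L+2D. With all 24 libraries in 1 fit the interaction of side with stage was called for 16 genes, 7 toward the buccal and 9 toward the lingual side. That of side with culture was called for 23 genes in the same fit, 5 toward the buccal and 18 toward the lingual side. The cause was not tested. Shares of all genes called were computed for the main fits and limits only. The counts under the alternatives therefore show how the number of collagen calls moved, not how collagen genes compared with all genes. The other alternatives (RLE size factors, DESeq2, both filters on low counts and TMM factors without the collagen genes) kept each count within 1.5 times, and no called log2 fold change reversed its sign in any alternative.

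Leaving out 1 library at a time gave 19 to 27 calls for Bell-W against Cap-W, 23 to 26 for Bell-L against Cap-L, 20 to 21 for Bell-B against Cap-B, 24 to 27 for Cap-B against Cap-L, 16 for Bell-B against Bell-L, 20 to 21 for Cap-B+2D against Cap-L+2D, 29 to 31 for Cap-L+2D against Cap-L, 25 to 27 for Cap-B+2D against Cap-B, 25 to 27 for Bell-L against Cap-L+2D, 26 to 29 for Bell-B against Cap-B+2D, and 26 to 31 and 33 to 37 for the interactions with stage and culture. Of 306 called results 28 lost their call in at least 1 such fit. Values near 0 that were not called changed sign: that of Col11a2 in Bell-W against Cap-W ran from -0.28 to 0.54 and that of Col2a1 in Bell-B against Bell-L from -0.0576 to 0.0178.

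Same-numbered libraries of different groups did not deviate together (correlations -0.05 to 0.09, none of 10 comparisons with every pair over 0.1), so the numbers were not taken to pair them. A fit with a replicate block gave 25, 24, 20, 26, 16, 20, 30, 26, 25, 29, 28 and 34 calls in the same order. The block ended the calls of Col1a2 (log2 fold change 0.70, adjusted p = 0.0562), Col19a1 (-1.90, adjusted p = 0.0697) and Col23a1 (0.51, adjusted p = 0.0652) in Bell-W against Cap-W and of Col20a1 (-0.31, adjusted p = 0.0615) in the interaction with stage. Col10a1, Col4a3 and Col4a4 had at most 11, 19 and 28 counts in a library. Col4a3 was kept from the pairwise tests by the filter on low counts, with 9 to 19 counts in Cap-L+2D against 0 to 3 in Bell-L and 1 to 6 in Cap-B+2D.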
